A study of Mus musculus with 8 samples.

Results

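Planar cell polarity orients cells within the plane of an epithelium. Its core proteins form complexes on opposite sides of a cell. Celsr cadherins, large multi-pass adhesion receptors, bridge neighbouring cells from both sides. Frizzled receptors with Dishevelled proteins collect at one side, and Vangl proteins with Prickle proteins at the other. The system is known for aligning hairs, sensory hair cells and cilia, and in the mammary gland Vangl2, Wnt5a and Ror2 have been linked to the branching of the ducts. The 10 core genes described here, Celsr1, Celsr2, Celsr3, Vangl1, Vangl2, Prickle1, Prickle2, Prickle3, Fzd3 and Fzd6, were found by their Entrez identifiers among the 24594 genes listed. Celsr2 was chosen by its measured difference in counts between luminal progenitors and mature luminal cells in these same libraries, so its values are a description without a test. The other 9 were added as its family and pathway partners.

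RNA-Seq was performed on luminal cells of the mammary gland of wild type C57BL/6J mice that had received no specific treatment. Luminal cells were separated by c-Kit, with EpCAM, CD49f and CD14 also named as sort markers in the labels, into luminal progenitors (LP), which are high for c-Kit, and luminal differentiated cells, which are low for it and called mature here, with 4 libraries each. The methods give an adult age range for the mice of the experiments as a whole. They call the replicates biological but state fewer per condition than the 4 libraries of each fraction. The age of the mice behind each library, and whether it came from 1 animal or a pool, are not given in the sources used here. The p-values therefore measure the spread between these libraries, which may be in part technical. In such bulk libraries, fewer cells of a type and less RNA per cell cannot be told apart.

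Library totals lay between 5510863 and 7089597 counts in LP and between 4410049 and 7791593 in mature cells. The labels were checked against marker genes. The summed level of 6 LP markers ranged from 16170 to 26260 CPM, that is counts divided by the normalised size of the library, in LP and from 343 to 1639 in mature libraries, the highest mature value being in replicate 3. Among them were Kit, whose protein divided the fractions, Cd14, whose protein the labels list among the sort markers, and Elf5, a transcription factor of the alveolar lineage (log2 fold change 2.02 ± 0.40, SE, edgeR adjusted p = 0.00524). In LP libraries most of the LP marker sum was Cd14 (12140 to 18320 CPM), followed by Csn3 (2128 to 8654 CPM). That sum therefore leans on a sort marker. The sum of 7 mature markers, with the hormone receptor genes Pgr and Prlr, ranged from 307 to 997 CPM in LP and from 4393 to 6145 CPM in mature libraries. Most of it in mature libraries was Prlr (3875 to 5442 CPM). Pgr had a log2 fold change of -2.91 ± 0.38 (edgeR adjusted p = 0.000678), and Prlr one of -3.35 ± 0.38 (edgeR adjusted p = 0.000432). Basal markers were low: 10 genes summed to 37.0 to 87.0 CPM in LP and 17.6 to 117 CPM in mature libraries, with replicate 3 the highest in both fractions, and Krt5 reached at most 2.17 CPM. Fibroblast markers (5 genes) summed to 7.35 to 39.1 CPM in LP and 21.7 to 174 CPM in mature libraries. Most of this was Dcn in the mature libraries and in LP replicates 1 and 2, but not in LP replicates 3 and 4. Endothelial (4 genes, at most 10.5 CPM), immune (5 genes, at most 7.803 CPM) and pericyte markers (3 genes, at most 12.6 CPM) were low but not absent. Rgs5 had 12.49 CPM in LP replicate 4, Csf1r had 2.913 to 7.471 CPM over all libraries, and Pecam1 reached 8.194 CPM. Of 4 Schwann and neural markers only Mbp, at 69.2 to 239 CPM, exceeded 3.47 CPM.

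The members belong to families of related genes, so it matters whether 51-base reads of one can be taken for another. No stretch of 51 bases in a Celsr1 or Celsr2 transcript occurs in any other GENCODE transcript. The stretches below are the most similar coding windows of that length between Celsr2 and each of its paralogues, and between Vangl1 and Vangl2. Capitals mark the bases at which the paired sequences differ. The Celsr2 and Celsr1 windows differ at 5 of 51 positions and lie in exon 1 of each gene (mm10, chr3:108413098-108413148, minus strand, and chr15:86031098-86031148, minus strand).
Celsr2: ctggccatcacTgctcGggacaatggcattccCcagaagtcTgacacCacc
Celsr1: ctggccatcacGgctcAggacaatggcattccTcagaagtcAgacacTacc
The closest Celsr2 and Celsr3 windows differ at 6 positions and lie in exon 2 of each gene (chr3:108406989-108407039, minus strand, and chr9:108832039-108832089, plus strand).
Celsr2: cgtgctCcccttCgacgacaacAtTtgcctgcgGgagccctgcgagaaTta
Celsr3: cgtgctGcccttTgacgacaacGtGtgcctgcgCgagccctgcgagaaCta
The closest Vangl1 and Vangl2 windows differ at 8 positions and lie in exon 7 of Vangl1 (chr3:102163323-102163373, minus strand) and exon 8 of Vangl2 (chr1:172006114-172006164, minus strand).
Vangl1: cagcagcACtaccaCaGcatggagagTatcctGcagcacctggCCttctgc
Vangl2: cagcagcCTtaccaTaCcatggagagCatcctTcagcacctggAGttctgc
The best windows of the other pairs differed at 6 positions for Prickle1 and Prickle2, 7 for Prickle2 and Prickle3, 8 for Prickle1 and Prickle3, and 9 for Fzd3 and Fzd6. Of the other members, Prickle3 shares 4.05% of its 51-base stretches with other transcripts, Fzd6 shares 2.10%, and the rest share at most 0.45%.

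Celsr2 was the member with a large difference between the fractions. It lies on chromosome 3 (mm10, 108390848 to 108416069, minus strand, 31 merged exons). Its level was 167, 153, 141 and 158 CPM in LP replicates 1 to 4, from 851 to 1151 counts, and 20.8, 18.9, 29.3 and 23.1 CPM in the mature replicates, from 72 to 203 counts. All LP libraries lay above all mature libraries, and within each fraction the values were close, with means of 154.8 ± 10.9 and 23.0 ± 4.5 CPM (SD, n = 4). The ratio LP to mature was 6.70, a log2 fold change of 2.74 ± 0.18 (SE, 95% interval 2.35 to 3.14). Celsr2 was chosen by this difference, so the interval does not allow for that choice and is not a test. The mature library with the most Celsr2, replicate 3, was also the one with the highest sum of LP markers, and their part in the value was not tested. In the whole table, 220 tested genes had a larger log2 fold change toward LP. Of the 3234 genes at least as abundant as Celsr2, 40 did.

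**Figure D1:**
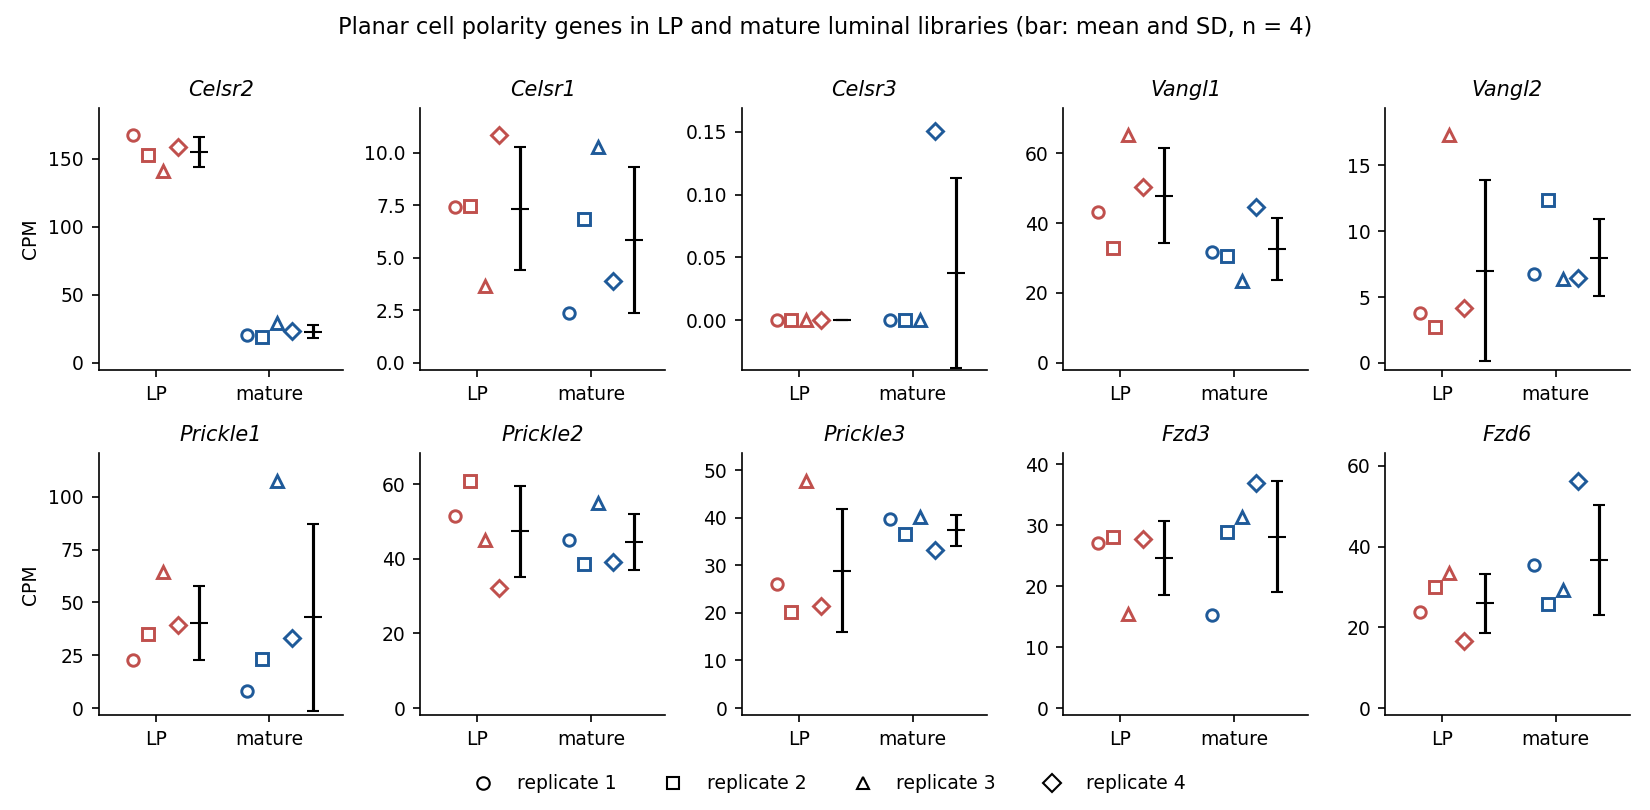
Level of each of the 10 members in CPM (linear axis, own scale per panel) in the 4 LP (red) and 4 mature (blue) libraries, with symbols for replicates 1 to 4 and the mean with SD beside them. The Celsr2 libraries are far apart, from 141 CPM upward in LP and up to 29.3 CPM in mature cells, while the libraries of every other member overlap.

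Celsr1 (chromosome 15, 85898758 to 86034223) and Celsr3 (chromosome 9, 108826023 to 108852969) encode the other cadherins of the family. Celsr1 acts in skin and the inner ear, and Celsr3 mainly in the nervous system. Celsr1 had 7.41, 7.48, 3.65 and 10.8 CPM in LP and 2.39, 6.83, 10.2 and 3.92 CPM in mature replicates 1 to 4. Both fractions covered nearly the same range, at only 17 to 78 counts a library. Its log2 fold change was 0.33 ± 0.54 (95% interval -0.86 to 1.53, edgeR adjusted p = 0.695). Celsr3 had 0 counts in 7 libraries and 1 count in mature replicate 4. A count of 0 allows a level of up to 3 counts, which is 0.416 to 0.788 CPM depending on the library. It was below the filter on low counts and not tested.

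Levels of different genes were compared per kilobase of exon. On that scale the 3 Celsr genes summed to 14.1 ± 1.1 CPM per kilobase in LP and 2.53 ± 0.64 in mature cells (SD, n = 4). Celsr2 made up 95.4% ± 1.7 of that sum in LP and 79.9% ± 8.3 in mature cells. Celsr1 made up nearly all the rest, 4.65% ± 1.66 and 20.0% ± 8.4. These shares follow the choice of Celsr2 and carry no test.

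**Figure D2:**
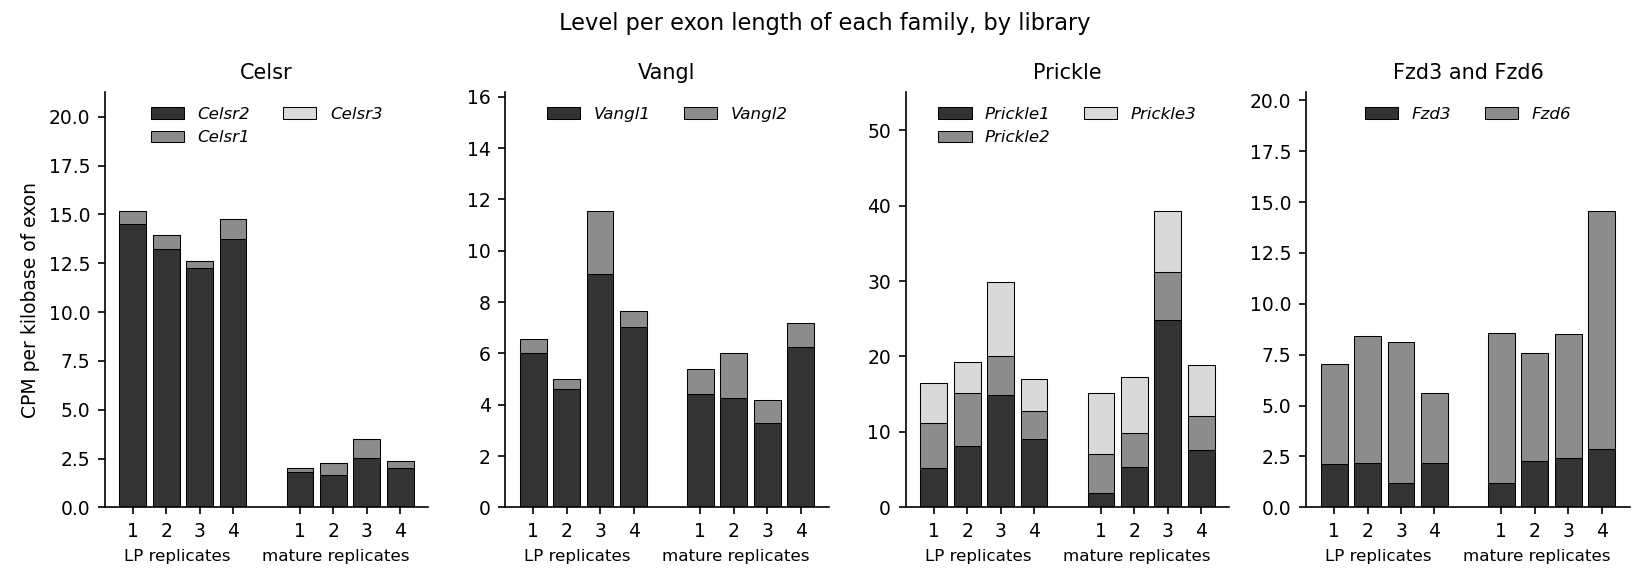
Stacked level per kilobase of exon (CPM per kilobase, linear axes from 0) of each paralogue family in LP replicates 1 to 4 (left bars) and mature replicates 1 to 4 (right bars), shaded by gene. The Celsr bars fall from 12.6 to 15.2 in LP to 2.03 to 3.48 in mature cells, and the replicate 3 bars are the tallest of the Prickle panel in both fractions.

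Vangl1 and Vangl2 encode membrane proteins that bind Prickle on the side of the cell opposite to Frizzled. Vangl1 (chromosome 3, 102153583 to 102204744) had 43.1, 32.9, 65.1 and 50.4 CPM in LP and 31.6, 30.5, 23.4 and 44.8 CPM in mature replicates. The LP libraries tended to be higher, but LP replicates 1 and 2 lay below mature replicate 4. With a log2 fold change of 0.55 ± 0.26 (95% interval -0.03 to 1.14), Vangl1 did not pass the test (edgeR adjusted p = 0.152). Vangl2 (chromosome 1, 172000960 to 172027318) had 3.77, 2.73, 17.3 and 4.16 CPM in LP and 6.75, 12.3, 6.35 and 6.48 CPM in mature replicates. LP replicate 3 alone exceeded all mature libraries, and the other LP libraries lay below all of them. The log2 fold change was -0.19 ± 0.61 (95% interval -1.54 to 1.16, edgeR adjusted p = 0.854). Without LP replicate 3 it was -1.15 (edgeR adjusted p = 0.134, range over all alternatives 0.122 to 0.997).

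The Prickle genes encode cytoplasmic LIM-domain proteins that join Vangl. Prickle1 (chromosome 15, 93499111 to 93596266) had 22.8, 35.2, 64.6 and 39.1 CPM in LP and 8.01, 23.4, 108 and 33.1 CPM in mature replicates. Replicate 3 was the highest library in both fractions, and the mature libraries spanned the whole LP range. The log2 fold change was -0.10 ± 0.63 (95% interval -1.48 to 1.28, edgeR adjusted p = 0.929), and it was 0.94 without mature replicate 3 (edgeR adjusted p = 0.182, range over all alternatives 0.182 to 0.983). The sum of the basal markers was also highest in replicate 3, at 87.0 CPM in LP and 117 CPM in mature cells. In LP replicate 3 it came mainly from Tagln (37.35 CPM) and Krt17 (33.2 CPM). Krt14 and Trp63 had their lowest LP value there, and Acta2 and Cnn1 their highest. In mature replicate 3 the sum came mainly from Tagln (37.82 CPM) and Krt17 (28.3 CPM). Krt14 (18.62 CPM) and Acta2 (16.6 CPM) were also at their highest there. Trp63 was higher in mature replicate 4 (5.424 against 3.032 CPM), and Cnn1 in mature replicates 2 and 4 (3.152 and 2.26 against 1.732 CPM). The part of these markers in the Prickle1 values was not tested. Prickle2 (chromosome 6, 92370891 to 92706334) had 51.4, 61.0, 45.0 and 32.0 CPM in LP and 45.0, 38.6, 54.9 and 39.2 CPM in mature replicates. Its fractions overlapped over most of their range, with a log2 fold change of 0.09 ± 0.23 (95% interval -0.41 to 0.59, edgeR adjusted p = 0.805).

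Prickle3 (chromosome X, 7657379 to 7668197) had 26.1, 20.3, 47.8 and 21.4 CPM in LP and 39.7, 36.5, 40.1 and 33.1 CPM in mature replicates. Of the LP libraries, 3 lay below every mature library, and replicate 3 lay above them all. The log2 fold change was -0.37 ± 0.28 (95% interval -0.998 to 0.253, edgeR adjusted p = 0.372). Without LP replicate 3 it was -0.72 and passed the test (edgeR adjusted p = 0.0414, range over all alternatives 0.0414 to 0.633). Without both libraries numbered 3 it was -0.69 and did not pass (edgeR adjusted p = 0.0656). Exons of Prickle3 share 246 bases, 5.02% of their length, with Plp2 on the opposite strand. The library kit does not mark strand, so reads from the shared bases cannot be told apart. Plp2 itself had 40.7 to 56.3 CPM in LP and 83.8 to 91.2 CPM in mature libraries, and its part in the Prickle3 counts was not tested.

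Fzd3 and Fzd6 encode the Frizzled receptors best known for planar cell polarity, Fzd3 in growing axons and Fzd6 in the orientation of hairs. Fzd3 (chromosome 14, 65192441 to 65262463) had 27.0, 28.0, 15.4 and 27.7 CPM in LP and 15.3, 28.9, 31.3 and 36.9 CPM in mature replicates. A single library in each fraction, LP replicate 3 and mature replicate 1, was low. For Fzd3 the log2 fold change was -0.19 ± 0.31 (95% interval -0.88 to 0.49, edgeR adjusted p = 0.691). Fzd6 (chromosome 15, 39006149 to 39038192) had 23.7, 29.9, 33.4 and 16.6 CPM in LP and 35.4, 25.7, 29.2 and 56.4 CPM in mature replicates. Mature replicate 4 was the highest and LP replicate 4 the lowest, while the middle libraries overlapped. Fzd6 had a log2 fold change of -0.51 ± 0.30 (95% interval -1.18 to 0.17, edgeR adjusted p = 0.256).

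Of the 9 members other than Celsr2, 8 were tested and 0 passed an adjusted p under 0.05 in edgeR's quasi-likelihood F-test, where 24.7% of all 12816 tested genes passed. At an unadjusted p under 0.05 the count was also 0, where 37.3% of all tested genes passed. Under the alternatives that count reached 2 (Vangl2 and Prickle3) without LP replicate 3 or without both libraries numbered 3. It was 1 (Vangl1) without LP replicate 2, without mature replicate 4, with thinned counts or with no filter. DESeq2 called 0 of the 8, beside 29.6% of all tested genes, and edgeR's likelihood ratio test 0, beside 29.2%. In 0 of the 8 did the libraries of the fractions separate, compared with 29.5% of all tested genes. The log2 fold changes of the 8 ran from -0.51 to 0.55 with a median of -0.14, beside a median near 0 over all tested genes, and their median absolute value was 0.26, beside 0.55 over all tested genes.

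Per kilobase of exon, Celsr2 was the most abundant member in LP, at 13.5 ± 0.9 CPM per kilobase (SD, n = 4), followed by Prickle1 at 9.31 ± 4.04, whose libraries overlapped with those of Celsr2. Vangl1 (6.69 ± 1.89), Prickle3 (5.90 ± 2.63), Prickle2 (5.49 ± 1.41) and Fzd6 (5.38 ± 1.53) came next, each overlapping with its neighbour. A gap without overlap separated these from Fzd3 (1.92 ± 0.48), Vangl2 (1.00 ± 0.98) and Celsr1 (0.667 ± 0.266), and Celsr3 was at 0. In mature cells Celsr2 stood in place 7, at 2.0 ± 0.39 CPM per kilobase, overlapping with Fzd3 above it (2.196 ± 0.716) and Vangl2 below it (1.14 ± 0.42). The mature order began with Prickle1 (9.91 ± 10.2), Prickle3 (7.62 ± 0.66) and Fzd6 (7.61 ± 2.85), which overlapped.

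Ratios between paralogues within a library do not depend on the scaling between libraries. The mean log2 ratio of Vangl2 to Vangl1 counts was -3.13 ± 0.82 in LP and -2.04 ± 0.62 in mature cells (SD, n = 4), a difference of -1.09 (two-sided exact permutation test, p = 0.0857, adjusted over 4 ratios 0.343). Vangl1 was the more abundant of the pair in each library, also per kilobase of exon, where it made up 70.7% to 92.2% of their sum. The differences LP minus mature were -0.32 for Fzd6 to Fzd3 (exact permutation p = 0.543, adjusted 0.686), -0.33 for Prickle2 to Prickle1 (exact permutation p = 0.686, adjusted 0.686) and -0.85 for Prickle3 to Prickle1 (exact permutation p = 0.4, adjusted 0.686). With 4 libraries against 4, the smallest p this test can give is 0.0286, and a ratio at that p would have an adjusted value of 0.114 with the other ratios as found, so these tests could not pass 0.05 after adjustment.

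The 5 genes whose pattern over the 8 libraries was nearest to that of Celsr2, by the root mean square difference of log2 CPM centred on each gene's mean, were Mgst1 (0.26), Golim4 (0.30), Cd81 (0.30), Slc29a3 (0.31) and R74862 (0.31), out of 9567 genes searched. Mgst1 encodes a membrane-bound glutathione transferase and had 1478 ± 202 CPM in LP and 214 ± 91 CPM in mature cells (SD, n = 4). Golim4, a protein of the Golgi apparatus, had 142 ± 20 and 26.9 ± 3.4 CPM. Cd81, a tetraspanin of the cell surface, had 2975 ± 493 and 627 ± 210 CPM, and Slc29a3, a nucleoside transporter, had 191 ± 33 and 29.8 ± 16.0 CPM. R74862, a long non-coding RNA, shares 104 exon bases with Cd81 on the opposite strand, so their reads there cannot be told apart. These 5 genes were picked by that distance over the same libraries. Their likeness to Celsr2 and their split between the fractions follow from the choice. Among the members the nearest was Vangl1, at a distance of 1.19, with 2248 genes nearer to Celsr2 than it.

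**Figure D3:**
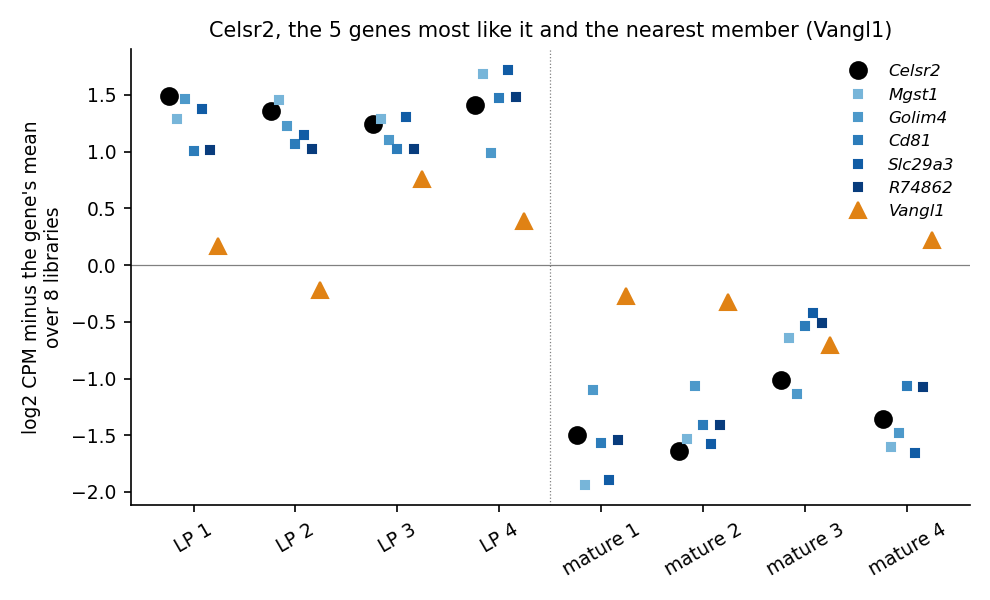
log2 CPM in each of the 8 libraries minus the gene's mean over them, for Celsr2 (black circles), the 5 genes nearest to it (blue squares) and Vangl1, the nearest member (orange triangles). The blue squares stay near the black circles, above 0.98 in LP and below -0.42 in mature cells, while Vangl1 lies between -0.71 and 0.76 with its fractions overlapping. The closeness of the blue squares follows from how these genes were picked.

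The wider pathway was described with 44 further genes in 6 roles, all of them listed. Of these, 36 were tested and 12 passed (33.3%, beside 24.7% of all tested genes). In LP, 3 were higher and 9 were lower, where 10.9% of all tested genes were higher and 13.8% lower. Without mature replicate 1 the count higher in LP was 5. Of the 12, Cthrc1 and Ror2 reached the minimum of the low-count filter in no LP library, so they could be tested only by being high in mature cells. Without that pair, 10 of 34 tested genes passed (29.4%), 3 higher and 7 lower in LP, where 24% of all genes at that minimum in a library of each fraction passed. In 15 of the 36 the libraries of the fractions did not overlap, where 29.5% of all tested genes did not. Without Cthrc1 and Ror2 it was 13 of 34, and the share over all genes at that minimum in each fraction was not computed. The median log2 fold change of the list was -0.11. It was also -0.11 when Cthrc1, which was at 0 counts in LP, was set to a floor of 3 counts there.

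**Figure D4:**
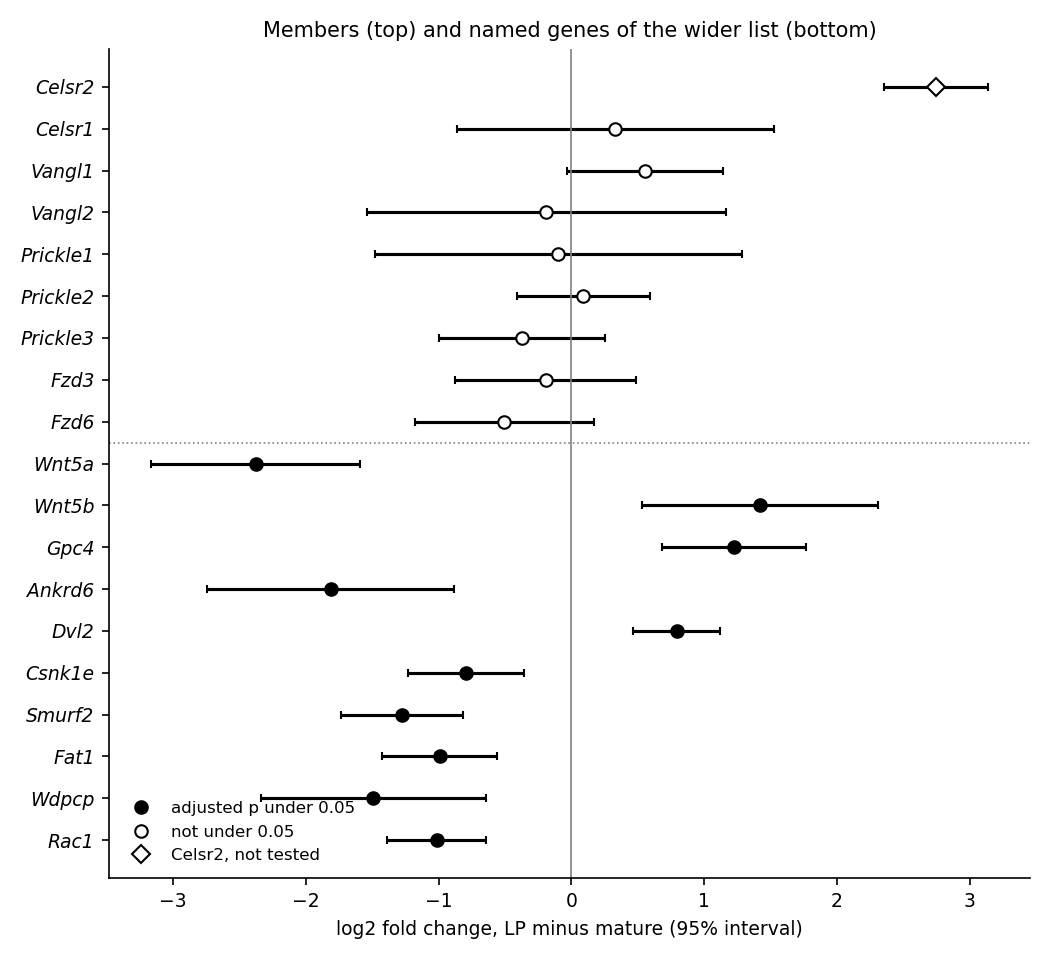
log2 fold change LP minus mature (linear axis in log2 units) with its 95% interval for the 9 members with a fitted value (top) and the named genes of the wider list other than Cthrc1 and Ror2 (bottom). Filled points had an edgeR adjusted p under 0.05, and the diamond marks Celsr2, which has no test. The Celsr2 interval does not allow for the choice of this gene by the difference shown. The intervals of the 8 tested members all include 0, whereas the named pathway genes lie on both sides of it, from -2.38 for Wnt5a to 1.42 for Wnt5b.

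Ligands: of 4 tested genes, 3 passed (75%, beside 24.7% of all tested genes), 1 higher and 2, Cthrc1 among them, lower in LP. Cthrc1 entered the test only through the mature libraries, so its pass carries no weight. Wnt5a, the ligand most often tied to planar polarity signalling (chromosome 14, 28504543 to 28527448), had 14.2, 9.63, 5.48 and 9.30 CPM in LP and 57.0, 56.5, 62.4 and 25.6 CPM in mature replicates. Every mature library lay above every LP library, and Wnt5a was 5.19-fold higher in mature cells (log2 fold change -2.38 ± 0.36, edgeR adjusted p = 0.00127). The 5 fibroblast markers summed to 135, 174, 24.7 and 21.7 CPM in mature replicates 1 to 4, mostly from Dcn. Their part in the Wnt5a values was not tested. Exons of Wnt5a share 358 bases, 4.58% of their length, with Gm2670 on the opposite strand, which is not among the genes listed. The part of those bases was not tested either. Its paralogue Wnt5b (chromosome 6, 119432531 to 119544824) went the other way, with 122, 162, 255 and 233 CPM in LP and 30.2, 47.8, 125 and 84.8 CPM in mature replicates. Only LP replicate 1 and mature replicate 3 overlapped, and that mature library had the most LP marker signal, whose part was not tested. The log2 fold change of Wnt5b was 1.42 ± 0.40 (edgeR adjusted p = 0.0254). It no longer passed without LP replicate 3, LP replicate 4 or mature replicate 2 (log2 fold changes 1.26, 1.32 and 1.28).

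Per kilobase of exon, Wnt5b was at 72.7 CPM per kilobase in LP and 27.1 in mature cells, and Wnt5a at 1.24 and 6.44, so Wnt5b was the more abundant ligand in both fractions. Cthrc1 encodes a secreted protein that favours the pairing of Wnt with Frizzled and Ror2 (chromosome 15, 39076932 to 39087121). It had 0 counts in every LP library and 30, 24, 22 and 35 counts in mature replicates 1 to 4, or 4.22, 6.30, 3.18 and 5.27 CPM. Its mean mature level was 10.7 times the mean level that 3 counts make up in the LP libraries. That ratio of means leaves out the spread of the mature libraries. Cthrc1 passed the filter on low counts only through the mature libraries, so no test is given.

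Receptors: of 7 tested genes, 2 passed (28.6%, beside 24.7% of all tested genes), 1 higher and 1, Ror2, lower in LP. The pass of Ror2 carries no weight, for the reason given for Cthrc1. Ror2, a receptor tyrosine kinase for Wnt5a (chromosome 13, 53109317 to 53286124), had 1, 1, 1 and 4 counts in LP and 52, 42, 53 and 41 counts in mature replicates. That is 0.145, 0.144, 0.166 and 0.555 CPM against 7.31, 11.03, 7.65 and 6.18 CPM, with no overlap, and means of 0.253 ± 0.202 and 8.04 ± 2.09 CPM (SD, n = 4). Ror2 too passed the filter only through the mature libraries, and no test is given. Gpc4, a heparan sulfate proteoglycan that binds Wnt ligands at the cell surface (chromosome X, 52051007 to 52164923), had 65.1, 61.8, 102 and 70.2 CPM in LP and 33.8, 28.1, 43.2 and 22.6 CPM in mature replicates. All LP libraries lay above all mature ones, with a log2 fold change of 1.22 ± 0.24 (edgeR adjusted p = 0.00516).

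**Figure D5:**
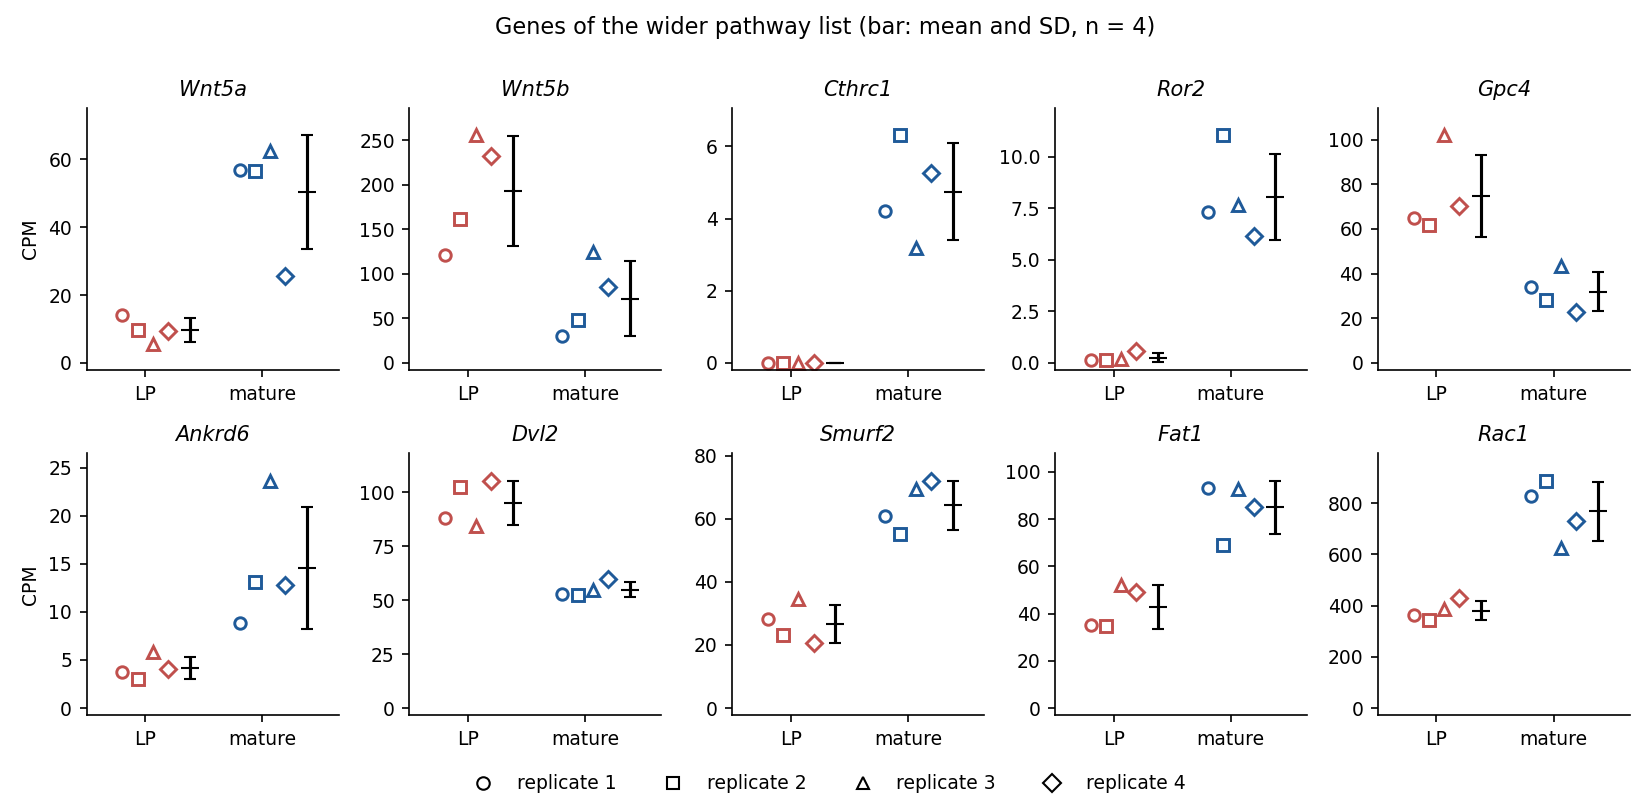
Level in CPM (linear axis, own scale per panel) of 10 named genes of the wider list in the LP (red) and mature (blue) libraries, with symbols for replicates 1 to 4 and the mean with SD. Wnt5a, Cthrc1, Ror2, Ankrd6, Smurf2, Fat1 and Rac1 are higher in every mature library, Gpc4 and Dvl2 in every LP library, and Wnt5b overlaps in LP replicate 1 and mature replicate 3.

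Cytoplasmic components: of 8 tested genes, 3 passed (37.5%, beside 24.7% of all tested genes), 1 higher and 2 lower in LP. Dvl2 encodes a Dishevelled protein, which passes on the Frizzled signal (chromosome 11, 70000592 to 70010109), and had 88.0, 103, 84.7 and 105 CPM in LP and 53.0, 52.3, 54.6 and 59.8 CPM in mature replicates. The fractions did not overlap (log2 fold change 0.79 ± 0.15, edgeR adjusted p = 0.00371). Its exons share 1151 bases, 18.3% of their length, with Acadvl on the opposite strand, which had 162 to 220 CPM in LP and 103 to 118 CPM in mature libraries. Reads from the shared bases cannot be told apart, and the part of Acadvl in the Dvl2 value was not tested. Ankrd6, known as Diversin, a partner of Dishevelled (chromosome 4, 32804027 to 32950885), had 3.78, 3.02, 5.81 and 4.02 CPM in LP and 8.86, 13.1, 23.7 and 12.8 CPM in mature replicates. All mature libraries were higher (log2 fold change -1.81 ± 0.42, edgeR adjusted p = 0.0106). Csnk1e, a kinase of Dishevelled (chromosome 15, 79417852 to 79455579), had 50.1, 32.9, 40.3 and 39.0 CPM in LP and 58.2, 81.7, 81.0 and 60.1 CPM in mature replicates, again without overlap. Its log2 fold change was -0.79 ± 0.20 (edgeR adjusted p = 0.0148). Without both libraries numbered 3 it was -0.71 and no longer passed (edgeR adjusted p = 0.0619, range over all alternatives 0.00342 to 0.0619).

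Trafficking and turnover: of 5 tested genes, 1 passed (20%, beside 24.7% of all tested genes), and it was lower in LP. Smurf2, a ubiquitin ligase that acts on Prickle1 protein (chromosome 11, 106820061 to 106920747), had 28.2, 23.2, 34.5 and 20.7 CPM in LP and 60.8, 55.2, 69.6 and 71.9 CPM in mature replicates. The fractions did not overlap (log2 fold change -1.27 ± 0.21, edgeR adjusted p = 0.00197). In the Fat and Dachsous group, which encodes the giant cadherins of a parallel polarity system, 5 of 6 genes were below the filter on low counts. The remaining one, Fat1 (chromosome 8, 44933100 to 45052257), had 35.1, 34.7, 52.1 and 49.0 CPM in LP and 93.0, 68.8, 92.8 and 85.0 CPM in mature replicates. It was lower in every LP library (log2 fold change -0.99 ± 0.20, edgeR adjusted p = 0.00482).

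Effectors: of 11 tested genes, 2 passed (18.2%, beside 24.7% of all tested genes), both lower in LP. Rac1, a small GTPase of the actin cytoskeleton (chromosome 5, 143505481 to 143528031), had 362, 344, 385 and 430 CPM in LP and 829, 888, 624 and 732 CPM in mature replicates. The fractions were well apart (log2 fold change -1.01 ± 0.17, edgeR adjusted p = 0.00215). The annotated exons of Rac1 share 2309 bases, 51.4% of their length, with Daglb on the opposite strand. Daglb had 84.1 to 107 CPM in LP and 149 to 224 CPM in mature libraries, and its part in the Rac1 value was not tested. Wdpcp, a protein of ciliogenesis and planar polarity (chromosome 11, 21571969 to 21898687), had 33.1, 30.1, 25.9 and 18.9 CPM in LP and 95.5, 128, 36.2 and 44.9 CPM in mature replicates. Mature replicates 1 and 2 stood well above the other two. The sum of the fibroblast markers was also highest in those libraries, mostly from Dcn. Dcn had 132 and 154 CPM there, and 14.15 and 20.64 CPM in mature replicates 3 and 4. Col3a1 and Pdgfra were highest in mature replicate 2, but Col1a1 and Col1a2 in mature replicate 3. The part of these markers in the Wdpcp values was not tested. The log2 fold change was -1.49 ± 0.38 (edgeR adjusted p = 0.0170), and without LP replicate 4 it was -1.35 and no longer passed.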

How the data were processed

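Bulk RNA-Seq of 4 LP and 4 mature luminal libraries was analysed. Per the labels, cDNA was amplified from sorted cells, and the processing notes name cutadapt 4.2 for trimming and Bowtie2 2.3.5.1 with mm10 for alignment. The authors deposited a table of raw counts, which were not normalized. How reads were counted, on which annotation, and what was done with reads that match more than 1 gene is not given in the sources used here. Bowtie2 does not split reads across introns, which lowers counts at exon junctions. Symbols were found for 24570 of 24594 Entrez identifiers in RefSeq (GRCm38.p6). Exon lengths, overlaps and transcript sequences came from GENCODE for GRCm38. Beside the overlaps given above, exons of Csnk1e (4.05% of their length), Fat1 (3.11%) and Fzd6 (3.15%) overlap opposite-strand genes that are not listed. Those of Wdpcp (0.88%) overlap Mdh1, which is listed. What these overlaps add to the counts was not tested.

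CPM are counts scaled by TMM factors, with no added count. LP was compared with mature cells by edgeR 4.0.16 (R 4.3.3), with filterByExpr grouped by fraction, no block, the quasi-likelihood F-test and Benjamini-Hochberg adjustment over 12816 tested genes, with a threshold of 0.05. The steps were tested on simulated data. Ratios of paralogues had 0.5 added to each count and were compared by exact permutation (scipy 1.17.1). The named genes were all members, up to 3 passing genes with the largest absolute log2 fold change in each role of the wider list, the 5 genes nearest to Celsr2 among those with an average log2 CPM of at least 3 (prior count 2), and the markers Kit, Elf5, Cd14, Pgr and Prlr. Members, lists and tests were chosen with earlier results of these data known. Alternatives were median-of-ratios factors, DESeq2 1.42.0, edgeR's likelihood ratio test, no filter, a replicate block, thinning, 2 as the count added in ratios, and leaving out each library. Leaving out both libraries numbered 3 was added after seeing the data. Limits from a count of 0 cover counting error only.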

Additional observations from a re-analysis of the deposited data

Results flagged for a closer look

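In 50 groups of 4 libraries, a library's gap to the nearest other was divided by the range of its group. In 7 groups that share exceeded Dixon's 95% critical value. Chance gives about 2.5 for independent groups of normally distributed values. Groups at few counts, and ratio groups that reuse values of the members, are not of that kind. Vangl2 was flagged in both fractions, at 17.3 CPM in LP replicate 3 and at 12.3 CPM in mature replicate 2. LP replicate 3 was also apart in the log2 ratio of Vangl2 to Vangl1, at -1.91, and in Fzd3, at 15.4 CPM. Wnt5a was low in mature replicate 4, at 25.6 CPM. Ror2 in LP replicate 4, at 0.555 CPM, and Celsr3 in mature replicate 4, at 0.151 CPM, differ from the other libraries by at most 4 counts.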

How the results depend on the processing

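Under 15 alternatives on the libraries by which Celsr2 was chosen, its log2 fold change lay between 2.68 and 2.92, a description without a test. The count of called members other than Celsr2 was 0 to 1 with single libraries left out, the 1 being Prickle3 without LP replicate 3, and 0 under the other alternatives. Calls in the wider list higher in LP were 2 to 5 with single libraries left out. With 1 library, or both libraries numbered 3, left out, log2 fold changes ranged from -1.25 to 0.12 for Vangl2, -0.44 to 0.94 for Prickle1, -0.05 to 0.24 for Prickle2, 0.08 to 0.99 for Celsr1 and -0.38 to 0.03 for Fzd3. The log2 ratios ranged from -0.86 to 0.29 for Prickle2 to Prickle1, -0.83 to -0.04 for Fzd6 to Fzd3, -1.47 to -0.22 for Prickle3 to Prickle1 and -1.50 to -0.85 for Vangl2 to Vangl1. Without both libraries numbered 3, Prickle1 was at 0.59, Vangl2 at -1.25 and Fzd3 at 0.032, and Csnk1e no longer passed (-0.71). The causes were not tested. LP and mature libraries with the same replicate number share a leading number in their names, whose meaning is not stated. The deviations of same-numbered libraries from their group means correlated at 0.06 to 0.15 and those of other pairs at -0.16 to 0.08, and 7 of 8 libraries correlated best with their own number, a hint from the data and not the design. With the number as a replicate block, 3027 genes were called (3161 without it), members other than Celsr2 remained at 0 calls, and Prickle1 was at 0.37. Low counts limit Celsr3 (0 to 1 counts a library), Celsr1 (17 to 78), Vangl2 (19 to 104), and Ror2 and Cthrc1 in LP.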
